A study of Saccharomyces cerevisiae with 4 samples.

Results

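The genes described here are those with which budding yeast, Saccharomyces cerevisiae, takes up phosphate, frees it outside the cell or in the vacuole, and stores it as polyphosphate. They are 10 genes of the 6688 listed, chosen by systematic name: PHO5, PHO11 and PHO12, which encode secreted acid phosphatases, PHO8, PHO84, PHO89, and VTC1 to VTC4. PHO11 and PHO12 are near-identical and were summed, which left 9 rows, and all 9 passed the filter on low counts. The series compares a wild-type strain (WT) with a strain labelled nhp6ab, the usual name for one that lacks NHP6A and NHP6B, whose small DNA-bending proteins work with the histone chaperone FACT. Polyadenylated RNA came from cells in exponential growth in the rich glucose medium YPD, with 2 libraries for each strain. The labels give no strain background, mating type or deleted bases. Nor do they state if the libraries of a strain came from separate cultures, and every p-value therefore reflects library-to-library spread that could be technical.

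The phosphate genes are controlled by Pho4, a transcription factor that acts with Pho2. When phosphate is plentiful, the cyclin Pho80 and the kinase Pho85 phosphorylate Pho4 and keep it out of the nucleus, and when phosphate is scarce, the inhibitor Pho81 blocks the kinase and the genes are induced. The PHO5 promoter is a textbook case of control by chromatin, because positioned nucleosomes cover it in the repressed state and are removed on induction.

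The 4 libraries held 22622592 to 29115870 expected counts, which are reads assigned to genes by estimate with RSEM. Levels are given in CPM (counts scaled to a fixed library total with TMM factors) where strains are compared and in TPM (a share of all transcripts, which corrects for length) where genes are compared. A gene was called when the adjusted p of edgeR's quasi-likelihood test, over all 6422 genes tested, was under 0.05. In the nhp6ab libraries NHP6A fell to 9.19% of its WT level and NHP6B to 39.8%, and both genes share bases with an overlapping reading frame. The alpha-cell pheromone gene MF(ALPHA)1 had 773 to 942 CPM and the a-cell pheromone genes MFA1 and MFA2 at most 0.379 CPM in every library, so the strains did not differ in mating type by these genes; of the other markers, STE2, STE6, BAR1 and AGA2 of a cells overlapped between the strains and MF(ALPHA)2 and STE3 of alpha cells were called lower in nhp6ab. No spike-in is given, so a change is read against the other genes: with library size alone the median log2 fold change of all genes moved from 0.01 to 0.22, and on log2(TPM + 1) to 0.28. None of the 9 phosphate rows changed direction under those scalings.

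Of the 9 phosphate rows, 7 were lower and 2 were higher in nhp6ab, with a median log2 fold change of -0.59 against 0.01 for all genes tested. The lower ones were PHO11 and PHO12 as a sum, both high-affinity transporter genes and all 4 VTC genes, and the higher ones were PHO5 and PHO8. Across the transcriptome 49.5% of genes were called, 24.5% higher and 25% lower, so a single call is common here. The 7 of 9 rows called lower are given beside that 25% as a description only. The rows were chosen with earlier results of these data known, and no test was run over them. The CPM ranges of the strains did not overlap in any of the 9 rows, which was also so for 77.5% of all genes tested. The nhp6ab values lay above WT in 2 rows, against 38.9% of all genes, and below WT in 7, against 38.6%.

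**Figure D1:**
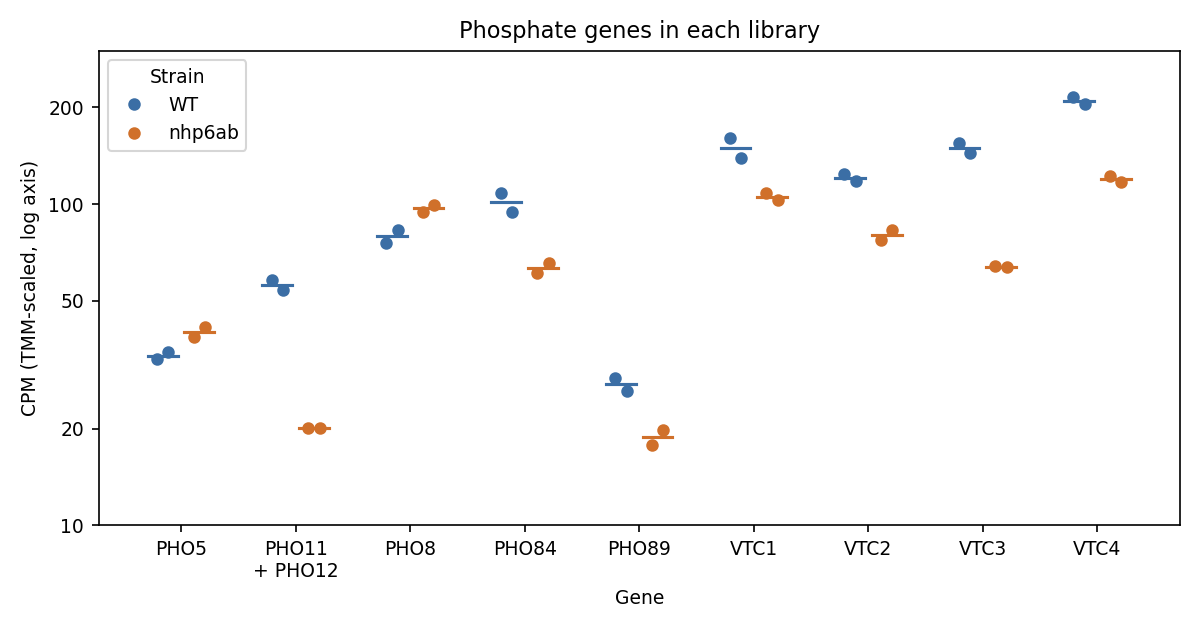
CPM of each phosphate gene (log axis) in the 2 WT libraries (blue) and the 2 nhp6ab libraries (orange), with a point per library and a line at each mean. PHO5 and PHO8 sit higher in nhp6ab, and the other rows sit lower, with the widest gap for the PHO11 and PHO12 sum, at 58.0 and 53.9 CPM against 20.1 CPM in each nhp6ab library.

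The secreted acid phosphatases are made by closely related genes, and in nhp6ab these moved in opposite directions. PHO5 (YBR093C; R64 chromosome II, 429548 to 430951, minus strand, 1 coding exon) encodes the main phosphate-repressible acid phosphatase. It had 32.9 and 34.5 CPM in WT and 38.4 and 41.3 CPM in nhp6ab. Both nhp6ab values lay above both WT values, by a small margin (log2 fold change 0.24, SE 0.07, n = 2 each; edgeR adjusted p = 0.0208). DESeq2 did not call PHO5 (adjusted p = 0.0608), and the call was also lost without WT replicate 1 (0.118), WT replicate 2 (0.0593) or nhp6ab replicate 2 (0.102).

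PHO12 (YHR215W; chromosome VIII, 552099 to 553502, plus strand, 1 coding exon) and PHO11 (YAR071W; chromosome I, 225460 to 226863, plus strand, 1 coding exon) encode 2 further acid phosphatases of the same kind. Their sum had 58.0 and 53.9 CPM in WT and 20.1 CPM in each nhp6ab library. The nhp6ab libraries kept 35.9% of the WT level (log2 fold change -1.48 ± 0.07 SE, adjusted p = 1.33e-05), the largest change among the 9 rows. All of these reads were assigned to PHO12, and PHO11 was listed at 0 expected counts in all 4 libraries. The coding sequences of the pair differ at 4 of 1404 bases in the reference, so reads of PHO11 and PHO12 can rarely be told apart, and the 0 limits PHO11 only as far as RSEM separates them (3 counts would be 0.0953 to 0.142 CPM, counting error only). Of the 10 annotated genes nearest to PHO11 on chromosome I, 8 were also listed at 0 in every library, and 5 of these 8 have no near-identical copy. Among them was YAT1, the gene of a carnitine acetyltransferase. Also among the 10, FLO1, which has a near-identical copy, had 53.7 to 81.15 expected counts over the libraries. PRM9, which has no such copy, had 2.23 to 6.67. Around PHO12 only 1 of the 10 nearest genes was listed at 0, and that one has a near-identical copy. These surrounding genes were looked at after the values of PHO11 were seen, and whether the strains carry this end of chromosome I was not tested.

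PHO3 (YBR092C; chromosome II, 427698 to 429101), the constitutive acid phosphatase gene, lies 446 bases downstream of PHO5 on the same strand. It had 169 and 156 CPM in WT and 109 and 104 CPM in nhp6ab, and it fell (-0.62 ± 0.06 SE, adjusted p = 0.000328) where its neighbour PHO5 was called higher. The coding sequences of PHO5 and PHO3 are 86.5% identical and those of PHO5 and PHO12 83.5% identical, so some reads of each could have been given to another. Within a library the ratio of PHO5 to the PHO11 and PHO12 sum, in TPM, was 0.567 and 0.641 in WT and 1.92 and 2.05 in nhp6ab. This ratio does not depend on how libraries are scaled, and it was 3.29-fold higher in nhp6ab (log2 change 1.72). The exact two-sided permutation test gave p = 0.333, which is the smallest p that 2 against 2 libraries allow, and the same p held for each of the 5 ratios compared, also after Benjamini-Hochberg adjustment. The ratio of PHO5 to PHO3 went from 0.194 and 0.221 to 0.352 and 0.399. PHO5 made up 37.6 ± 2.02% of the combined TPM of PHO5, PHO11 and PHO12 in WT and 66.5 ± 1.10% in nhp6ab (SD, n = 2 each). Their combined level was 48.5 ± 0.36 TPM in WT and 39.7 ± 2.11 TPM in nhp6ab. With PHO3 added, the sum was 136 ± 2.16 and 110 ± 0.88 TPM, and PHO3 held 64.5 ± 0.83% and 63.9 ± 1.63% of it. Both sums are in TPM without TMM factors, and on log2(TPM + 1) the median log2 fold change of all genes was 0.28. A fall therefore reads smaller there than in CPM, as for PHO3, at -0.62 in the main fit and -0.32 on log2(TPM + 1).

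The promoters of PHO5 and PHO12 are shown because their genes moved apart although both are targets of Pho4. Each stretch is 300 bases long and begins 400 bases before the start codon, read 5′ to 3′ on the coding strand from the RefSeq R64 genome (PHO5 at chrII:431052-431351, minus strand; PHO12 at chrVIII:551699-551998, plus strand). Capitals mark CACGTG, the palindromic core of the strong Pho4 site, and CACGTT, the core of a weaker Pho4 site, which was searched on both strands.
PHO5: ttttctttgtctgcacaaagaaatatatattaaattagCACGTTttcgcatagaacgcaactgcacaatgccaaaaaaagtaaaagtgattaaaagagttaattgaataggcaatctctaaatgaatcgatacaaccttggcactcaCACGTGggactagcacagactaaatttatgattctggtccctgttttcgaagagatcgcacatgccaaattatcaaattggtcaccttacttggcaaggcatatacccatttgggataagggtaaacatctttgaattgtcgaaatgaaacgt
PHO12: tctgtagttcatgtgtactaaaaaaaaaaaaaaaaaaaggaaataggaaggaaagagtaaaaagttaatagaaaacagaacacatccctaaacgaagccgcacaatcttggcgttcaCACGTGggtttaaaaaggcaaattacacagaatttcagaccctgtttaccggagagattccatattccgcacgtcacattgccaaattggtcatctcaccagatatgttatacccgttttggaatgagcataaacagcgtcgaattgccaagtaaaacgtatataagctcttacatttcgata
PHO5 held CACGTG with its first base 253 bases before the start codon and CACGTT at 362. PHO12 held CACGTG at 283 and CACGTT at 418, the latter outside the stretch shown. PHO11 had the same 2 motifs at 283 and 416, and its CACGTG stretch (chrI:225165-225194, plus strand) is letter for letter that of PHO12.
PHO11: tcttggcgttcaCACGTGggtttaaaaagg
Neither PHO11 nor PHO12 held TATAAA in the 500 bases before the start codon, and PHO5 held it only at 437. The 500 bases before PHO11 and before PHO12 differ at 81 positions. So PHO5 and PHO12 hold the same 2 Pho4 letter patterns in the same order. Of the exact letters searched, only TATAAA was found before PHO5 and not before PHO12. Variants of TATAAA were not searched, and the PHO12 stretch shown holds tatataag near its end. The search therefore does not show that PHO11 or PHO12 lacks a TATA motif or differs from PHO5 in having one.

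PHO8 (YDR481C; chromosome IV, 1418550 to 1420250, minus strand, 1 coding exon) encodes the vacuolar alkaline phosphatase. It had 75.5 and 83.2 CPM in WT and 94.4 and 99.7 CPM in nhp6ab. The ranges did not overlap, and the gene was called higher (0.29 ± 0.07 SE, adjusted p = 0.0102), with the call lost without WT replicate 1 (0.0899). PHO8 was the only one of the 10 genes without CACGTG in the 500 bases before its start codon. It held CACGTT at 380, on the other strand, where it reads AACGTG in the line shown (chrIV:1420613-1420642, minus strand). That site lies inside CWC21, the neighbouring gene of a splicing factor, which had 30.2 and 37.2 CPM in WT and 45.3 and 36.8 CPM in nhp6ab and was not called (0.29 ± 0.13 SE, adjusted p = 0.0986).
PHO8: ctcatatggagaAACGTGagattgaagtac

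Both high-affinity phosphate transporter genes were lower in nhp6ab. PHO84 (YML123C; chromosome XIII, 24037 to 25800, minus strand, 1 coding exon) encodes the proton-coupled transporter. It had 108 and 94.3 CPM in WT and 61.0 and 65.7 CPM in nhp6ab. Every nhp6ab library lay below every WT library, at 62.6% of the WT level (log2 fold change -0.68 ± 0.08 SE, adjusted p = 0.000602). A noncoding RNA gene on the opposite strand, YNCM0001W (chromosome XIII, 23564 to 26578), covers all 1764 bases of PHO84. No row of it was analysed here and the sources used here name no strand setting for the counting, so sense and antisense reads cannot be told apart. PHO89 (YBR296C; chromosome II, 796798 to 798522, minus strand, 1 coding exon) encodes the sodium-coupled transporter, which works at alkaline pH. It had 28.7 and 26.3 CPM in WT and 17.8 and 19.8 CPM in nhp6ab, a decrease to 68.3% of the WT level (-0.55 ± 0.09 SE, adjusted p = 0.00204). On log2(TPM + 1) PHO89 was not called (-0.24, adjusted p = 0.0669), where the median of all genes was 0.28.

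The low-affinity transporter genes moved in opposite directions. PHO90, which encodes a low-affinity plasma membrane transporter, rose from 69.2 and 66.9 CPM to 93.5 and 93.4 CPM (0.46 ± 0.05 SE, adjusted p = 0.000555). PHO87, its paralog, fell from 94.0 and 89.1 CPM to 76.6 and 76.5 CPM (-0.26 ± 0.05, adjusted p = 0.00741), although it was not called without WT replicate 1 (0.0684) or with library size alone (-0.05, adjusted p = 0.523), and on log2(TPM + 1) its value was 0.034. PHO91, which encodes a vacuolar phosphate transporter, rose from 74.0 and 70.9 to 90.7 CPM in each nhp6ab library (0.32 ± 0.05). SYG1, a gene of a plasma membrane protein with an SPX domain, was called higher (0.31 ± 0.09, adjusted p = 0.0219) and lost the call without either WT library. Of the 7 genes in this list of other transport genes 3 were called higher and 1 lower. This is 57.1% called, against 49.5% of all genes tested. The ratio of PHO84 to PHO90 within a library was 2.36 and 2.13 in WT and 0.986 and 1.06 in nhp6ab, so PHO84 stood above PHO90 in both WT libraries and on either side of it in nhp6ab. PHO84 held 43.5 ± 1.41% of the combined TPM of PHO84, PHO89, PHO87 and PHO90 in WT and 32.9 ± 0.91% in nhp6ab (SD, n = 2 each).

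The transporter promoters are shown at their Pho4 core letters, in the same notation. PHO84 held CACGTG at 436 and 414 (chrXIII:26197-26248, minus strand), 22 bases apart, and CACGTT on the other strand at 262 (chrXIII:26045-26074). PHO89 held CACGTT at 463 (chrII:798968-798997, minus strand) and CACGTG at 323 (chrII:798828-798857).
PHO84 distal: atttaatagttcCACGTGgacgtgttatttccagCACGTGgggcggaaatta
PHO84 proximal: agctagattaaaAACGTGcgtattactcat
PHO89 distal: tttcgtcatcccCACGTTgtgccattaatt
PHO89 proximal: atgacaatgcagCACGTGggagacaaatag

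All 4 genes of the core vacuolar transporter chaperone were lower in nhp6ab, by unequal amounts. This complex makes polyphosphate from ATP and passes it into the vacuole. Vtc4 is the catalytic subunit, Vtc1 is a small membrane subunit, and Vtc2 and Vtc3 are related accessory subunits that occur in different forms of the complex. VTC4 (YJL012C; chromosome X, 411234 to 413399, minus strand, 1 coding exon) had 215 and 204 CPM in WT and 122 and 117 CPM in nhp6ab, which is 57.0% of the WT level (-0.81 ± 0.06 SE, adjusted p = 8.07e-05). VTC1 (YER072W; chromosome V, 302806 to 303195, plus strand, 1 coding exon) had 161 and 139 CPM in WT and 108 and 103 CPM in nhp6ab (-0.51 ± 0.08, adjusted p = 0.00200). For both genes the strains were apart by more than their replicates.

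VTC3 (YPL019C; chromosome XVI, 514511 to 517018, minus strand, 1 coding exon) fell furthest of the 4. It had 155 and 144 CPM in WT and 64.1 and 63.5 CPM in nhp6ab, which is 42.7% of the WT level (-1.23 ± 0.06 SE, adjusted p = 1.75e-05). VTC2 (YFL004W; chromosome VI, 131810 to 134296, plus strand, 1 coding exon) had 124 and 118 CPM in WT and 77.4 and 83.1 CPM in nhp6ab, which is 66.5% of the WT level (-0.59 ± 0.06, adjusted p = 0.000349). The order of this pair turned round. The ratio of VTC2 to VTC3 in TPM was 0.805 and 0.824 in WT and 1.22 and 1.32 in nhp6ab, and VTC2 made up 44.9 ± 0.40% of the pair in WT and 55.9 ± 1.41% in nhp6ab (SD, n = 2 each). The ratio of VTC1 to VTC4 was 4.49 and 4.09 in WT and 5.34 and 5.28 in nhp6ab (log2 change 0.31).

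Each VTC promoter held CACGTG, and the promoters differed in how many matches they held. Whether the number of matches goes with the size of a change was not tested. VTC3 held CACGTG at 345 and 311 (chrXVI:517346-517375 and chrXVI:517312-517341, minus strand) with CACGTT on the other strand at 278 (chrXVI:517279-517308). VTC4 held CACGTG at 125 and 113 (chrX:413495-413536, minus strand), VTC1 at 157 (chrV:302637-302666, plus strand) and VTC2 at 311 (chrVI:131487-131516, plus strand).
VTC3 distal: tgtgcgagggccCACGTGgcttaatacaac
VTC3 middle: tgcagtcgcaagCACGTGcatgcgattttg
VTC3 proximal: gcacaaggcagaAACGTGgaaacatacaca
VTC4: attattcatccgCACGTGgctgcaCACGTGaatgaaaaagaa
VTC1: aatagatattagCACGTGtctcggagagaa
VTC2: gaaaaaaaaaccCACGTGctgcttggaaat
Over all 10 genes, 9 held CACGTG in the 500 bases before the start codon, against 6.23% of 6006 nuclear genes with a full window. CACGTT was found before 7 of the 10 genes, against 16.0% of all genes, and TATAAA before 6 of the 10, against 60.5%. These matches are letters only, and they describe the genes without saying whether Pho4 bound there in these cells.

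**Figure D2:**
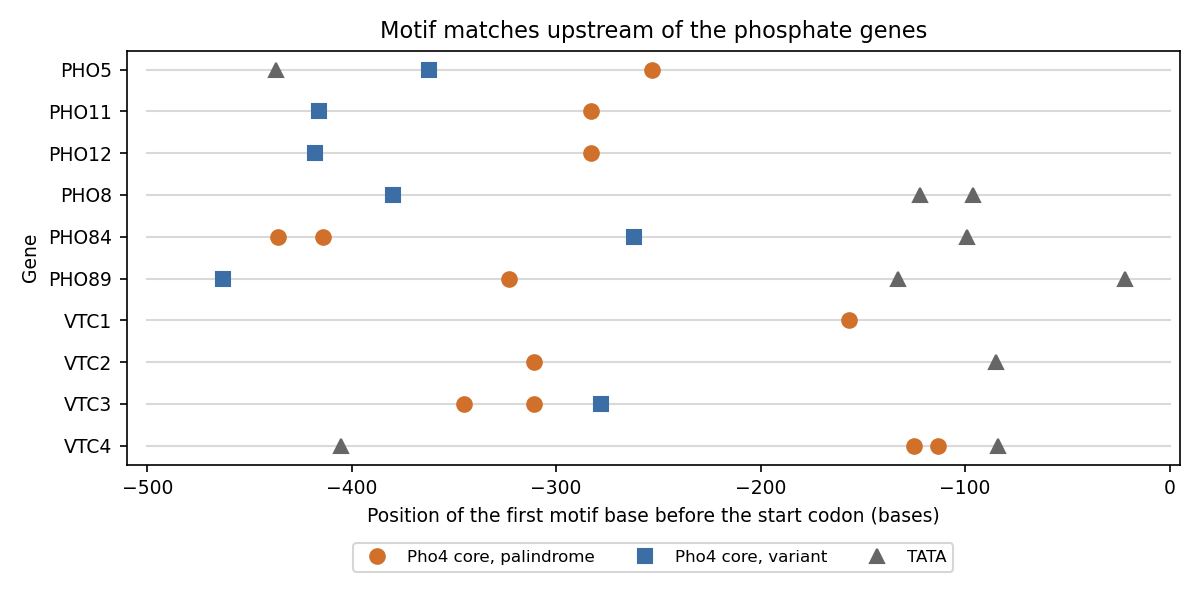
Matches to the palindromic Pho4 core, the variant Pho4 core and TATAAA in the 500 bases before the start codon of the 10 genes. The x axis is the distance of the first base of a match from the start codon in bases. The palindromic core is present before 9 genes, lies between 113 and 436 bases from the start codon, and is missing before PHO8.

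The polyphosphatase genes were read beside the synthesis genes. PPN2, which encodes a vacuolar endopolyphosphatase, fell from 116 and 118 CPM to 45.3 and 44.6 CPM (-1.38 ± 0.05 SE, adjusted p = 7.97e-06), a larger fall than that of VTC3. DDP1, which encodes a phosphohydrolase of polyphosphate and inositol pyrophosphates, was called lower (-0.21 ± 0.06, adjusted p = 0.0259), but with library size alone its value was 0.00019 (adjusted p = 0.999), and the call was also lost in DESeq2 (0.0685) and without WT replicate 1 (0.0940), WT replicate 2 (0.134) or nhp6ab replicate 2 (0.114). PPN1, the other endopolyphosphatase gene (0.02 ± 0.06), PPX1, the cytosolic exopolyphosphatase gene (-0.11 ± 0.05), and VTC5, which encodes a further subunit of the complex (0.12 ± 0.19), were not called. VTC5 had 103.7 and 65.1 CPM in the nhp6ab libraries, on either side of the 74.5 and 80.9 CPM of WT. Without nhp6ab replicate 2 VTC5 was called higher (0.42, adjusted p = 0.0011) and without nhp6ab replicate 1 lower (-0.26, adjusted p = 0.0160), so its value rests on which of these libraries is used. In this list of 5 genes, 2 were called lower and 0 higher, which is 40% called against 49.5% of all genes tested. PPN1 was called higher with library size alone (0.23, adjusted p = 0.0139) and by limma on log2(TPM + 1) (0.31, adjusted p = 0.00979) and log2(TPM + 0.1) (0.32, adjusted p = 0.0100). PPX1 was called higher by limma on log2(TPM + 1) (0.18, adjusted p = 0.0482) and log2(TPM + 0.1) (0.18, adjusted p = 0.0483).

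The levels of the phosphate genes, corrected for length, spanned a wide range. In WT the order of mean TPM ran from VTC1 at 313 ± 23.9, through VTC4 at 72.8 ± 0.76, VTC3 at 44.7 ± 1.04, PHO84 at 43.2 ± 2.95, VTC2 at 36.4 ± 0.26, PHO8 at 35.3 ± 3.38, the PHO11 and PHO12 sum at 30.2 ± 0.75 and PHO5 at 18.2 ± 1.11, to PHO89, whose 2 values were lower than those of every other row (SD, n = 2 each). VTC3 and PHO84 had overlapping ranges, as did VTC2 and PHO8, and the other neighbours in this order were apart. In nhp6ab VTC1 still led, at 270 ± 4.33 TPM, and PHO89 was still lowest, at 10.1 ± 0.95 TPM. PHO8 moved to the second place at 52.8 ± 3.04 TPM, where its range overlapped that of VTC4 at 50.9 ± 0.39 TPM. PHO5 at 26.4 ± 1.84 TPM passed VTC3 at 23.4 ± 0.29 TPM and the PHO11 and PHO12 sum at 13.3 ± 0.27 TPM. Against all genes tested, the PHO11 and PHO12 sum went from the 51.6 to the 19.6 percentile of mean TPM and VTC3 from the 64.1 to the 36.2 percentile.

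**Figure D3:**
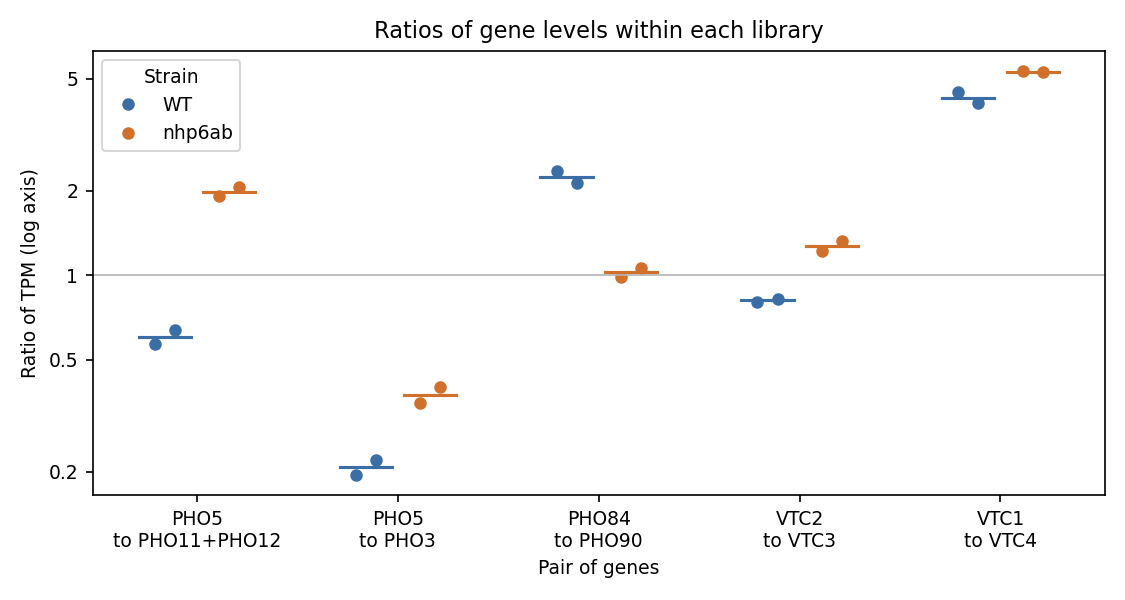
Ratio of the TPM values of 2 genes within each library (log axis) for 5 pairs, with WT in blue, nhp6ab in orange, a point per library and a line at the geometric mean. The ratio of PHO5 to PHO11 and PHO12 and that of VTC2 to VTC3 cross 1 between the strains, and that of PHO84 to PHO90 falls from 2.36 and 2.13 to 0.986 and 1.06.

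Among PHO4, PHO2 and the genes that signal to Pho4, 2 of 5 genes were called higher and 2 lower, which is 80% called against 49.5% of all genes tested. PHO4 had 28.6 and 28.7 CPM in WT and 43.4 and 33.2 CPM in nhp6ab. It was called higher (0.42 ± 0.12 SE, adjusted p = 0.0266), but it lost the call without WT replicate 1 (0.158), WT replicate 2 (0.147) or nhp6ab replicate 1 (0.101). PHO85, the kinase gene, rose from 87.0 and 92.4 to 107 and 110 CPM (0.28 ± 0.06, adjusted p = 0.00653), without a call when WT replicate 1 was left out (0.0677). PHO81, the inhibitor gene and itself a Pho4 target, fell from 48.1 and 47.8 to 36.4 and 35.9 CPM (-0.41 ± 0.06, adjusted p = 0.00127), with no call on log2(TPM + 1) (-0.10, adjusted p = 0.311). PHO2 was called lower by a small amount (-0.17 ± 0.06, adjusted p = 0.0414), but not in DESeq2 (0.159) nor with any 1 library left out (0.0634 to 0.139), and its value was 0.045 with library size alone. PHO80, the cyclin gene, was not called in the main fit (0.10 ± 0.06). It was called higher with library size alone (0.31, adjusted p = 0.00697) and by limma on log2(TPM + 1) (0.38, adjusted p = 0.00330) and log2(TPM + 0.1) (0.39, adjusted p = 0.00342).

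Among 6 other genes reported as Pho4 targets, 3 were called lower and 0 higher, which is 50% called against 49.5% of all genes tested. Their median log2 fold change was -0.36. SPL2, which encodes a regulator of low-affinity phosphate transport, had 6.95 and 5.58 CPM in WT and 3.48 and 4.39 CPM in nhp6ab (-0.68 ± 0.19 SE, adjusted p = 0.0244). PHM8, a phosphatase gene, went from 85.7 and 88.8 to 55.5 and 68.6 CPM (-0.49 ± 0.10, adjusted p = 0.00568). CTF19, a kinetochore gene that is transcribed away from VTC3 across 632 shared bases, went from 19.4 and 19.6 to 13.8 and 15.4 CPM (-0.41 ± 0.09, adjusted p = 0.00821). PHM6 (-0.31 ± 0.22), PHM7 (-0.24 ± 0.18) and HOR2 (-0.24 ± 0.14) were not called. With library size alone or on log2(TPM + 1) 0 of the 6 were called, and without WT replicate 1 or WT replicate 2 the number called lower was 0 or 1. Without nhp6ab replicate 1 HOR2 was called lower (-0.51, adjusted p = 0.000398) and SPL2 was not called (0.0580).

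The inositol polyphosphate genes were also mixed, with 1 of 6 called higher and 2 lower, or 50% called against 49.5% of all genes tested. The list holds enzymes of the synthesis or breakdown of inositol pyrophosphates. These molecules report phosphate supply to proteins with an SPX domain, among them the VTC complex. KCS1, an inositol hexakisphosphate kinase gene, rose from 99.4 ± 0.84 CPM to 143 ± 8.01 CPM (mean ± SD, n = 2 each), with a log2 fold change of 0.52 ± 0.06 SE (edgeR adjusted p = 0.000541). ARG82, the inositol polyphosphate multikinase gene, was lower (-0.37 ± 0.07, adjusted p = 0.00559), with no call with library size alone (-0.16, adjusted p = 0.153). VIP1, the second pyrophosphate synthase gene, was called lower by a small amount (-0.16 ± 0.05, adjusted p = 0.0338), but not in DESeq2 (0.0713) or without WT replicate 1 (0.158), WT replicate 2 (0.0967) or nhp6ab replicate 1 (0.0514), and its value was 0.049 with library size alone. PLC1 (-0.04 ± 0.06), IPK1 (-0.31 ± 0.12) and SIW14, a gene of breakdown (0.20 ± 0.09), were not called. SIW14 was called higher without WT replicate 2 (0.33), with library size alone (0.41, adjusted p = 0.00632) and with the replicate number as a block (0.20, adjusted p = 0.0365). Limma called it higher on log2(TPM + 1) (0.49, adjusted p = 0.00703) and log2(TPM + 0.1) (0.49, adjusted p = 0.00732). PLC1 was called higher on both TPM scales (0.23 and 0.25). In the list of other phosphatases, PHO13, which encodes a phosphatase of small metabolites, was called higher (0.19 ± 0.06, adjusted p = 0.0272). PHO13 lost the call when any of 3 libraries was left out (WT replicate 1, WT replicate 2 or nhp6ab replicate 2). DIA3 (-0.07 ± 0.12) and GDE1, which encodes a phosphodiesterase (-0.21 ± 0.10), were not called. Without nhp6ab replicate 1 GDE1 was called lower (-0.36, adjusted p = 0.00900).

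Pho2 also acts with Bas1 on the adenine synthesis genes, and their values depended on which nhp6ab library was used. Of 8 such genes 1 was called higher and 0 lower, which is 12.5% called against 49.5% of all genes tested. Their median was 0.44 on the log2 scale. With library size alone or on log2(TPM + 1) 6 were called higher. ADE8 had 135 and 130 CPM in WT and 192 and 154 CPM in nhp6ab (0.38 ± 0.10 SE, adjusted p = 0.0179), and it was not called without WT replicate 1 (0.106) or WT replicate 2 (0.140). All 8 were higher in nhp6ab replicate 1 than in nhp6ab replicate 2, as in ADE2 with 994 and 440 CPM against 417 and 438 CPM in WT; ADE2 was chosen after its values were seen. Without nhp6ab replicate 2 all 8 were called higher (median 0.75), and without nhp6ab replicate 1 there were 1 higher and 2 lower (median 0.033). The 7 phosphate rows called lower kept that call under each left-out library.

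Over the 7 lists of other pathway genes together, 8 of 41 genes were called higher and 11 lower, with a median log2 fold change of 0.02. That is 46.3% called, near the 49.5% of all genes tested.

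**Figure D4:**
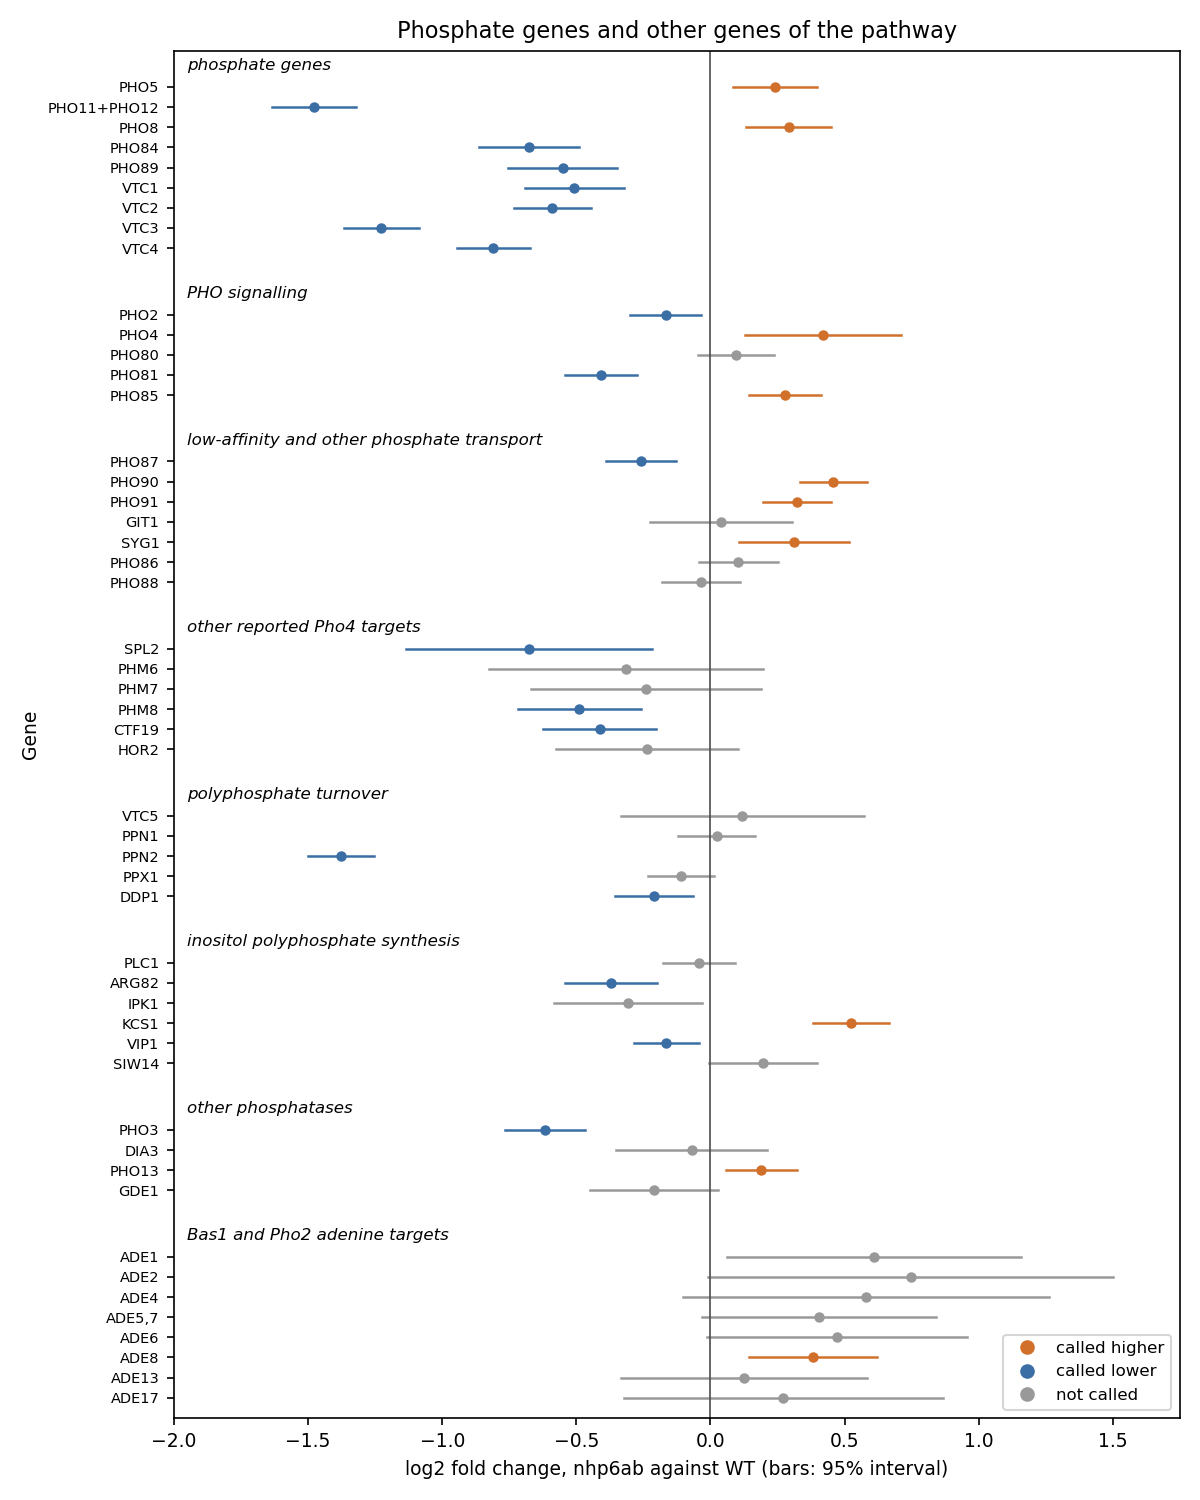
Log2 fold change of nhp6ab against WT for the 9 phosphate rows and 41 other genes of the pathway, with bars for the 95% interval of the edgeR fit and colour for the call. The phosphate rows lie from -1.48 to 0.29, and PPN2 at -1.38 is the lowest of the other genes.

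**Figure D5:**
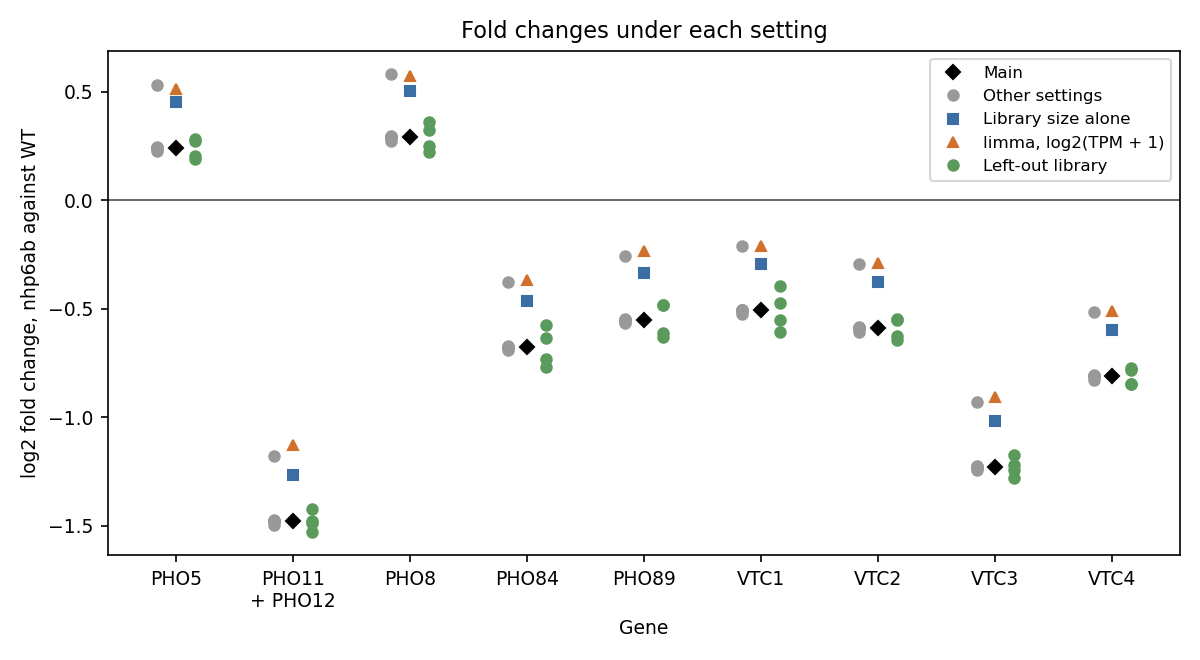
Log2 fold change of each phosphate row under the main setting (black), library size alone (blue), limma on log2(TPM + 1) (orange), 4 left-out libraries (green) and the other settings (grey). Each row stays on 1 side of 0 under every setting drawn, and the values of PHO5 run from 0.19 upwards.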

How the data were processed

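Polyadenylated RNA of exponentially growing WT and nhp6ab yeast was sequenced from 2 libraries per strain, grouped by the titles in the labels. The authors deposited RSEM expected counts per gene and RSEM TPM values, as the deposited sheets are named, with sacCer3 as the genome build per the submitters' processing notes. Not given in the sources used here are the aligner, annotation, RSEM version and strand setting. Of 6688 identifiers 6005 matched RefSeq R64, the release of sacCer3, which gave symbols, coordinates and sequences. Expected counts were rounded, PHO11 and PHO12 were summed, and edgeR 4.0.16 in R 4.3.3 tested all genes by quasi-likelihood with TMM factors, a low-count filter (minimum count 10, minimum total 15), a model of strain alone that leaves 2 residual degrees of freedom, and Benjamini-Hochberg adjustment. A standard error was taken as |log2 fold change| over the root of the F statistic. Near-identical copies were found with BLAST+ 2.17.0 (95% identity over 50% of the coding length). The fit was run on simulated counts drawn with its own dispersions, in which few genes were changed. That run cannot show whether the calls or the TMM scaling hold in these data.

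Named genes were the 10 phosphate genes, NHP6A and NHP6B, all members of each pathway list of up to 6 genes, the called members of longer lists up to 6, adjacent genes called at a change of at least 1.5-fold, and the 3 genes closest in pattern to PHO84 and to PHO5. The phosphate genes, lists and tests were chosen with earlier results of these data known. Alternatives were DESeq2 1.42.0, upper quartile factors, library size alone, other filters, limma-voom and limma on TPM (limma 3.58.1), a replicate term, PHO11 and PHO12 as 2 rows, and each library left out. Keeping PHO11 and PHO12 as 2 rows could not change a result, because PHO11 was listed at 0 in every library.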

Additional observations from a re-analysis of the deposited data

How the results depend on the processing

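All 9 phosphate rows kept their direction under every alternative run, and the number called lower was 7 with each library left out. PHO5 had a log2 fold change of 0.24 without a call in DESeq2 and 0.19 to 0.28 with each library left out, PHO8 had 0.22 to 0.36, and the phosphate genes called higher numbered 1 in DESeq2 and 0 to 2 with each library left out. PHO89 was not called on log2(TPM + 1) (-0.24) or log2(TPM + 0.1) (-0.25). The other pathway genes called higher and lower numbered 18 and 3 with library size alone, 20 and 2 on log2(TPM + 1), 19 and 2 on log2(TPM + 0.1), and 3 to 15 and 4 to 13 with each library left out. All genes called higher and lower numbered 3023 and 800 with library size alone, 3566 and 617 on log2(TPM + 1), 3558 and 614 on log2(TPM + 0.1), and 901 to 1462 and 1063 to 1557 with each library left out. Library size alone and TPM move the median of all genes, and for the other changes the cause was not tested.

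With library size alone, log2(TPM + 1) and log2(TPM + 0.1), in that order, these pathway genes turned sign: PHO2 (0.045, 0.12 and 0.13), PPX1 (0.10, 0.18 and 0.18), DDP1 (0.00019, 0.080 and 0.081), PLC1 (0.17, 0.23 and 0.25), VIP1 (0.049, 0.13 and 0.13), DIA3 (0.14, 0.19 and 0.22) and GDE1 (0.0021, 0.077 and 0.082). PPX1 and PLC1 were also called higher on both TPM scales (limma adjusted p = 0.0482 and 0.0368 on log2(TPM + 1)). On the TPM scales alone PHO87 (0.034 and 0.035), PHM7 (0.039 and 0.060) and HOR2 (0.037 and 0.037) turned. With each library left out VTC5 ran from -0.26 to 0.42 and PPN1 from -0.030 to 0.077.

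With the replicate number as a block, 14 other pathway genes were called higher, among them 6 of the 8 adenine genes, and the calls of the 9 phosphate rows did not change. The labels do not say that the numbers pair the samples, and the difference between replicates 1 and 2 correlated at -0.070 between the strains across genes, so the block was not used for the results. How depth bears on the calls was not tested. The ratio of PHO11 to PHO12 could not be computed with PHO11 at 0. The other 5 ratios moved by less than their replicate spread when taken from expected counts over coding length. TPM is itself a count over length scaled within a library, so this agreement was fixed in advance and is no check.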

Other observations

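The open reading frame YML122C (chromosome XIII, 26038 to 26418, minus strand) lies 237 bases upstream of PHO84, on its strand, and holds all 3 of the Pho4 core matches found before PHO84. It had 2.17 ± 0.66 CPM in WT and 4.67 ± 0.54 CPM in nhp6ab (mean ± SD, n = 2 each), without overlap (log2 fold change 1.09, SE 0.24, edgeR adjusted p = 0.00876), so reads assigned to the PHO84 promoter region were higher while PHO84 was lower. The call was lost without WT replicate 2 (0.83, adjusted p = 0.0563). YML122C too is covered by the noncoding gene YNCM0001W on the opposite strand, and its strand of origin cannot be told apart in these counts. Next to PHO89, TYC1 was called higher at 0.777 and 0.331 against 1.61 and 1.13 CPM (1.25 ± 0.42, adjusted p = 0.0443), and upstream of PHO12, YHR214C-E was called lower at 1.14 and 1.09 against 0.650 and 0.413 CPM (-1.06 ± 0.33, adjusted p = 0.0335). DESeq2 called neither (adjusted p = 0.0748 and 0.140), and both rest on few reads. TYC1 had 2.03 without WT replicate 1, 0.80 without WT replicate 2 (adjusted p = 0.210) and 0.94 without nhp6ab replicate 1 (0.179). YHR214C-E lost its call without WT replicate 1 (0.141), WT replicate 2 (0.127) or nhp6ab replicate 2 (0.168).

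Of the 16 adjacent genes that were tested, 10 were called, 2 higher and 8 lower, where 49.5% of all genes tested were called, 24.5% higher and 25% lower. ALD5, a mitochondrial aldehyde dehydrogenase gene 834 bases downstream of VTC1 on the same strand, fell from 41.1 and 39.9 to 17.5 and 18.0 CPM (-1.19 ± 0.06, adjusted p = 2.49e-05), further than VTC1. RPC17, an RNA polymerase III subunit gene 885 bases upstream of VTC4 on the same strand, fell from 34.4 and 32.0 to 18.8 CPM in each nhp6ab library (-0.82 ± 0.07, adjusted p = 0.000156). The genes whose centred log2 CPM values over the 4 libraries lay closest to PHO84 were ECM3, OAC1 and ERG5 (Euclidean distances 0.0212, 0.0232 and 0.0343), and those closest to PHO5 were PRP39, STP3 and PDR16 (0.00548, 0.0123 and 0.0144).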
